A study of Homo sapiens with 30 samples.

Results

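The genes described here make and process ribosomal RNA. They encode subunits and initiation factors of RNA polymerase I (Pol I), proteins that modify and cleave the precursor RNA, and factors that assemble the small and large ribosomal subunits in the nucleolus. The list held 42 genes chosen by function, with earlier results of these data known. Of these, 36 had a named probe on the array, and all 36 passed the filter (in some group, a probe with a detection p under 0.01 on each of its 3 arrays), among 11526 genes and unnamed probes that passed it in all. TAF1D, NOP58, NPM1, GNL3, EBNA1BP2 and WDR43 had no named probe and were not analysed here. The 36 genes were read by 43 kept probes. For the 7 genes with more than 1, the brightest probe was used. The second probe is given where only 1 of the 2 was called, or where both were called in opposite ways. Where neither was called their signs could still differ, as for POLR1D at 10 nM in WT cells (-0.13 and 0.32).

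Pol I transcribes the repeated ribosomal RNA genes after UBTF and the SL1 complex have bound their promoter and RRN3 has brought the polymerase to it. The precursor RNA is methylated by box C/D and pseudouridylated by box H/ACA ribonucleoproteins, then cut and assembled with ribosomal proteins. Actinomycin D binds GC-rich DNA, and low doses are known to block Pol I before the other polymerases. When ribosome assembly is disturbed, free ribosomal proteins bind MDM2 and p53 is stabilised, whereas nutlin-3 stabilises p53 by occupying MDM2 directly.

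The cells were HCT116, a human colon adenocarcinoma line, in an isogenic pair that lacked p53 (p53KO) or was wild type (WT). Both were profiled on Illumina bead arrays after 16 hours with 4 µM nutlin-3 or with 1, 10 or 100 nM actinomycin D. They were also profiled untreated, which is entered as 0 treatment hours. The titles of the untreated arrays name neither a vehicle nor a time. Time in culture and drug may therefore not be separable in comparisons with untreated arrays. There were 3 arrays for each of the 10 groups. The labels say neither which clone the p53KO cells were nor whether replicates were grown separately, so the p-values speak only of the spread among arrays, which may be technical. All values below are log2 intensities or differences between them. A gene was called where limma's adjusted p over all 11526 features was under 0.05, and "higher", "lower", "rose" and "fell" are used of such calls. Second probes were called at the same threshold in a separate fit, with p-values adjusted over all 12896 kept probes.

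Before the results, 4 of the 30 arrays have to be named. PROM1, a surface protein detected in WT but not in p53KO cells of the actinomycin D and untreated groups, was 9.07 on the array labelled p53KO nutlin-3 replicate 3, against 4.27 and 4.19 on the other 2. On the array labelled WT nutlin-3 replicate 3 it was 4.36, against 9.00 and 8.75. CDKN1A, a p53 target, was 13.89 on that p53KO array, against 10.38 and 10.38, and 10.62 on that WT array, against 13.78 and 13.85. Both arrays thus go against their labels and were kept as labelled. The first untreated array of each genotype also stood apart, with CDKN1A at 11.69 against 10.36 and 10.54 in p53KO cells and at 13.91 against 12.27 and 12.22 in WT cells. Counts are given with and without these 4 arrays.

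At 100 nM the 6 arrays had 10101 to 10690 detected probes, against 11338 to 12629 on the other 24. The arrays were brought to a common distribution, so fewer cells and less RNA per cell cannot be told apart. Actinomycin D arrays never shared a slide with untreated arrays, so slide and treatment cannot be told apart in comparisons with untreated arrays. Of 9 epithelial markers, EPCAM, KRT8, KRT18, KRT19 and CDX2 were detected on all 30 arrays and VIL1 on none. No leukocyte or endothelial marker was detected on all 30. Of 5 fibroblast markers, COL1A1 was detected on 27 arrays, DCN on 1 and the other 3 on none. Of the erythroid markers, HBA1 was detected on all 30 arrays and HBB on none.

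Promoters of 31 of the 36 genes were found in RefSeq (GRCh38.p14, 250 bases before to 50 after the transcription start). The E-box CACGTG, which reads the same on both strands, was in 9 of these 31 promoters (29%), in 31 of 99 of other ribosome biogenesis genes (31.3%), in 910 of 8954 of all tested genes (10.2%) and in 2030 of all 27305 (7.43%). It was in 6 of the 11 matched promoters of genes called higher at 10 nM in WT cells (54.5%) and in 4 of the 16 of genes called lower at 100 nM in WT cells (25%). Among genes called higher at 10 nM in p53KO cells, BYSL and NOP2 had it. NIP7, TAF1C, TSR1, NCL and NOP56 did not, and POLR1E had no matched promoter. FBL, called lower at 10 nM in WT cells, had it too. Whether the E-box bears on these changes was not tested. Shown here are the matched promoters of the genes called higher in WT cells at both 1 and 10 nM, with the E-box in capitals. BYSL lies at chr6:41921249-41921548 (plus strand), with the E-box starting 29 bases after the transcription start. RCL1 lies at chr9:4792694-4792993 (plus strand), with the E-box starting 5 bases after it. NIP7 at chr16:69339522-69339821 (plus strand) and TAF1C at chr16:84187008-84187307 (minus strand) do not have these letters in the window.
BYSL: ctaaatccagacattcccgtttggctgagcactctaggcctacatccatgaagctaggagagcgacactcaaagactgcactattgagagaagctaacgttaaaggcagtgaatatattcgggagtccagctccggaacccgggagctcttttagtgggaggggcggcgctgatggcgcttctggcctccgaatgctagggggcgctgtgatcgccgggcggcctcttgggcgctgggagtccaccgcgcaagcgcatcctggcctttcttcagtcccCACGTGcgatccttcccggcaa
RCL1: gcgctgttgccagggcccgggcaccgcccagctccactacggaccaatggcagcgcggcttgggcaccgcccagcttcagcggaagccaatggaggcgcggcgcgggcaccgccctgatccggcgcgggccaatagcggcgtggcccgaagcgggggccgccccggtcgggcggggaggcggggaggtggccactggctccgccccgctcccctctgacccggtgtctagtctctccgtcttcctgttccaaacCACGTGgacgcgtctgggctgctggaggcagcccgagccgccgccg
NIP7: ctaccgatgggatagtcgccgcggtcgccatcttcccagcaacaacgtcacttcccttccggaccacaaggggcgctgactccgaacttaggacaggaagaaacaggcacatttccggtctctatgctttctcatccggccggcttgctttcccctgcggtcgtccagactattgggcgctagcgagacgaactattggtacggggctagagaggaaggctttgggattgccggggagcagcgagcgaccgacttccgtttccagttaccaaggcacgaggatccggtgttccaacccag
TAF1C: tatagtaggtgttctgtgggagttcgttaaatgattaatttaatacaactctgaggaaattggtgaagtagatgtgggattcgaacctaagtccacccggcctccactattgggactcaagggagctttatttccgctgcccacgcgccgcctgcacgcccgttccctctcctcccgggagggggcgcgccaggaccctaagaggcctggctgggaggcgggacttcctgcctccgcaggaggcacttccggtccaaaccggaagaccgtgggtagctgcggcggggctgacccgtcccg

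**Figure D1:**
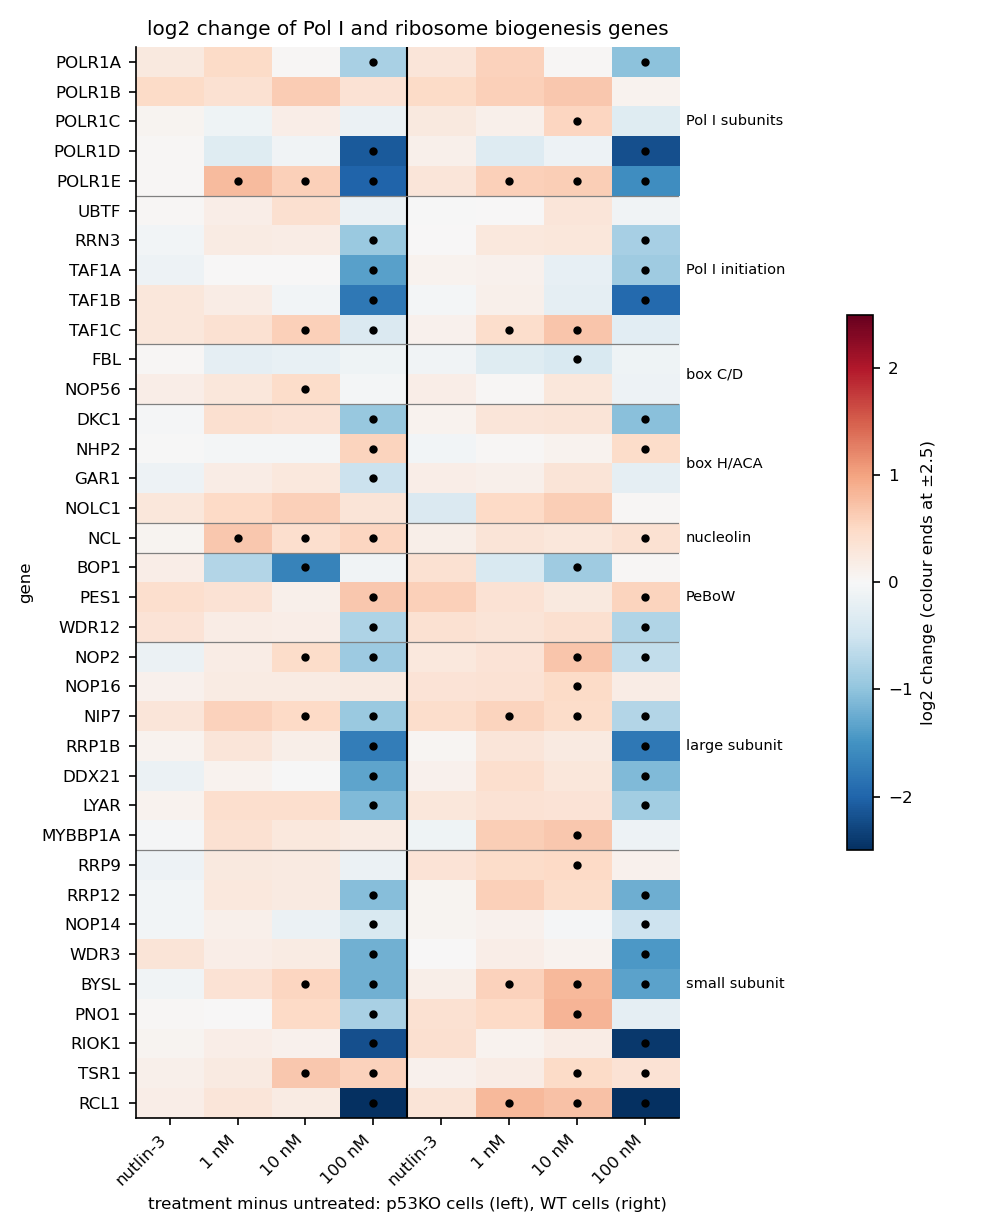
Log2 change against untreated arrays of each of the 36 genes (rows, grouped by role) under nutlin-3 and 1, 10 and 100 nM actinomycin D (columns), in p53KO cells (left) and WT cells (right); red is higher, blue is lower, colours end at 2.5, and dots mark calls at adjusted p under 0.05. Dots at 1 nM stand only on red cells, 22 genes in p53KO and 19 in WT cells are called lower at 100 nM, and no dot stands under nutlin-3.

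At 1 nM actinomycin D the few genes that passed the test were higher than in untreated cells. In p53KO cells 2 of the 36 were called higher and 0 lower, against 0.312% of all features higher and 0.495% lower. In WT cells 5 were called higher and 0 lower, against 4.06% higher and 5.25% lower. The median change of the list was 0.22 in p53KO and 0.33 in WT cells, beside 0.01 and 0.02 over all features.

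POLR1E, a Pol I subunit that with its partner forms a heterodimer on the enzyme's surface, was called in both genotypes. It read 10.32, 10.11 and 10.29 in p53KO cells at 1 nM, against 9.22, 9.64 and 9.48 untreated, a rise of 0.79 ± 0.18 (SE, adjusted p = 0.0335). In WT cells it read 9.82, 9.71 and 9.67, against 9.13, 9.29 and 9.00 untreated, a rise of 0.59 ± 0.18 (SE, adjusted p = 0.0375). Treated and untreated arrays did not overlap in either genotype. NCL, nucleolin, an abundant nucleolar RNA-binding protein, was the other gene called in p53KO cells. It read 10.36, 10.63 and 10.36 there at 1 nM, against 9.76, 9.83 and 9.75 untreated, a rise of 0.67 ± 0.15 (SE, adjusted p = 0.0287). In WT cells NCL read 10.10, 9.88 and 10.10 at 1 nM, against 9.51, 9.85 and 9.73 untreated, a difference of 0.33 ± 0.15 (SE, adjusted p = 0.174).

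RCL1, whose yeast relative takes part in cleaving the small subunit precursor RNA, had the largest WT change of the list at 1 nM. It read 8.91, 9.04 and 8.89, against 8.26, 8.09 and 8.10 untreated, a rise of 0.80 ± 0.13 (SE, adjusted p = 0.000241). In p53KO cells it read 8.69, 8.65 and 8.69, against 8.28, 8.55 and 8.30 untreated, a difference of 0.30 ± 0.13 (SE, adjusted p = 0.296). BYSL, a factor bound to small subunit precursors, read 10.27, 10.23 and 10.24 in WT cells, against 9.64, 9.80 and 9.58 untreated, a rise of 0.57 ± 0.14 (SE, adjusted p = 0.0088). NIP7, which acts in large subunit maturation, and TAF1C, an SL1 subunit, also rose in WT cells. NIP7 read 10.99, 10.73 and 10.81, against 10.21, 10.32 and 10.37 untreated, a rise of 0.55 ± 0.16 (SE, adjusted p = 0.0342). The rise of TAF1C was 0.44 ± 0.12 (SE, adjusted p = 0.0249), while its second probe was not called (0.12 ± 0.13 (SE, adjusted p = 0.652)). The second probe of POLR1D rose in WT cells at 1 nM by 0.50 ± 0.15 (SE, adjusted p = 0.0414), while the probe used was not called (-0.32 ± 0.15 (SE, adjusted p = 0.203)).

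The catalytic subunits and the other initiation factors were not called at 1 nM. POLR1A, the largest subunit, read 6.44, 6.22 and 6.07 in p53KO cells against 5.32, 6.13 and 5.84 untreated, and 6.17, 6.35 and 6.22 in WT cells against 5.24, 6.07 and 5.69. The WT arrays did not overlap, but the difference of 0.58 ± 0.23 (SE) missed the threshold (adjusted p = 0.112). POLR1B, the other catalytic subunit, read 6.81, 6.58 and 6.86 in p53KO cells against 6.70, 6.29 and 6.14 untreated, and 6.66, 7.16 and 7.62 in WT cells against 6.91, 5.95 and 6.81, overlapping in both. UBTF, which bends the ribosomal gene promoter, read 6.93, 6.87 and 6.89 in p53KO cells against 5.96, 7.11 and 7.12, and 6.87, 6.86 and 6.72 in WT cells against 6.17, 7.25 and 7.01, the first untreated array being the low one in each. RRN3 differed by 0.20 ± 0.15 in p53KO and 0.26 ± 0.15 in WT cells (SE, adjusted p = 0.636 and 0.324).

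The 1 nM calls depended on the arrays and the slide term. With the slide as a random block 0 of the 36 genes were called in either genotype, beside 0.0434% of all features in p53KO and 0.399% in WT cells. The correlation that this block estimated within slides was 0.50 with all arrays and -0.09 without the 4 arrays named above. Without the 4 arrays named above, 4 were called in p53KO and 8 in WT cells, all higher, against 3.51% and 17.3% of all features in either direction. In p53KO cells 0 calls were left without the second or the third 1 nM array or the first or the third untreated array, and 1 without the second untreated array. In WT cells 2 were left without the second 1 nM or the third untreated array, and 3 without the first or the third 1 nM array. The shares of all features called in these fits are not given here, so these counts do not set the 36 genes apart. BYSL and RCL1 were called in WT cells whichever 1 of the 6 arrays was left out.

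**Figure D2:**
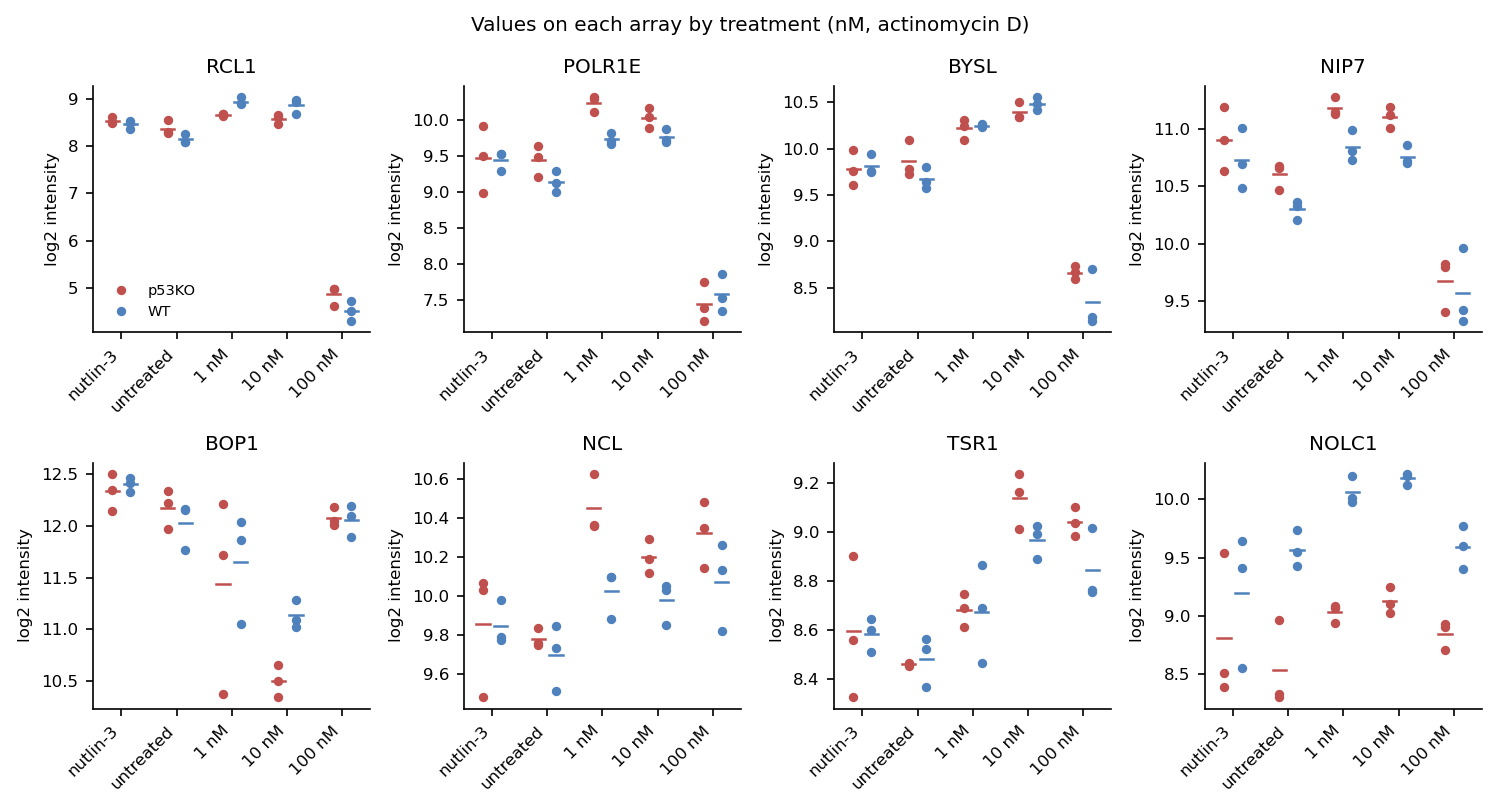
Log2 intensity on each array (points) and group means (bars) of 8 genes under nutlin-3, without drug and at 1, 10 and 100 nM actinomycin D, with p53KO (red) left of WT (blue) and 3 arrays a group; each panel has its own axis. RCL1, POLR1E, BYSL and NIP7 are lowest at 100 nM, BOP1 is lowest at 10 nM, and NOLC1 is lower in p53KO than in WT cells except on the third nutlin-3 arrays.

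At 10 nM more genes were called, again mostly higher. In p53KO cells 8 were called higher and 1 lower, against 10.4% of all features higher and 11.2% lower. In WT cells 12 were called higher and 2 lower, against 15.6% higher and 15.4% lower. The median change of the list was 0.22 in p53KO and 0.32 in WT cells, beside 0.04 and 0.03 over all features. BYSL, NIP7, NOP2, POLR1E, TAF1C and TSR1 were called higher in both genotypes, and BOP1 was called lower in both.

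Among the Pol I genes, POLR1E read 10.16, 10.05 and 9.89 in p53KO cells at 10 nM and 9.87, 9.72 and 9.70 in WT cells, a rise of 0.59 ± 0.18 (SE, adjusted p = 0.0204) and of 0.62 ± 0.18 (SE, adjusted p = 0.0102) over the untreated values above. TAF1C read 10.84, 10.86 and 10.76 in p53KO cells, against 9.98, 10.38 and 10.30 untreated, a rise of 0.60 ± 0.12 (SE, adjusted p = 0.00104). In WT cells it read 11.17, 11.25 and 11.01, against 10.39, 10.54 and 10.39 untreated, a rise of 0.70 ± 0.12 (SE, adjusted p = 0.000138). All 3 treated arrays lay above all 3 untreated ones in both genotypes. The second probe of TAF1C rose in p53KO cells (0.67 ± 0.13 (SE, adjusted p = 0.000633)) and was not called in WT cells (0.28 ± 0.13 (SE, adjusted p = 0.109)). POLR1C, a subunit that Pol I shares with RNA polymerase III, rose in WT cells by 0.54 ± 0.17 (SE, adjusted p = 0.0184), and its second probe rose by 0.51 ± 0.17 (SE, adjusted p = 0.0232). In p53KO cells POLR1C differed by 0.16 ± 0.17 (SE, adjusted p = 0.557).

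The catalytic subunits, UBTF and RRN3 were not called at 10 nM. POLR1A read 5.74, 6.08 and 5.57 in p53KO and 5.49, 5.84 and 5.77 in WT cells, overlapping the untreated arrays. POLR1B read 6.98, 6.87 and 7.20 in p53KO and 7.12, 6.94 and 7.62 in WT cells. Its treated arrays lay above the untreated ones in both genotypes, yet its differences were 0.64 ± 0.31 and 0.67 ± 0.31 (SE, adjusted p = 0.153 and 0.104). UBTF read 7.19, 7.19 and 6.99 in p53KO and 7.23, 7.08 and 7.02 in WT cells. RRN3 read 9.99, 9.91 and 10.01 in p53KO cells against 9.87, 9.82 and 9.65 untreated, and 9.82, 9.77 and 9.90 in WT cells against 9.49, 9.67 and 9.48, without overlap in either.

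Of 9 small subunit genes, 2 were called higher at 10 nM in p53KO and 5 in WT cells. PNO1, which binds late small subunit precursors, read 8.89, 8.31 and 8.71 in WT cells, against 7.60, 7.95 and 7.77 untreated, a rise of 0.86 ± 0.19 (SE, adjusted p = 0.00142). In p53KO cells PNO1 read 8.85, 8.81 and 8.66, against 8.83, 8.01 and 8.01 untreated, overlapping through the first untreated array (0.49 ± 0.19 (SE, adjusted p = 0.0698)). BYSL read 10.50, 10.34 and 10.35 in p53KO cells, against 10.09, 9.78 and 9.73 untreated, a rise of 0.53 ± 0.14 (SE, adjusted p = 0.00659). Its WT values were 10.56, 10.42 and 10.48, a rise of 0.81 ± 0.14 (SE, adjusted p = 8.43e-05). TSR1, a factor related to GTPases that acts on the same precursors, read 9.24, 9.16 and 9.01 in p53KO cells, against 8.46, 8.47 and 8.46 untreated, a rise of 0.68 ± 0.13 (SE, adjusted p = 0.000457). In WT cells it read 8.99, 8.89 and 9.02, against 8.52, 8.37 and 8.56 untreated, a rise of 0.48 ± 0.13 (SE, adjusted p = 0.00545). RCL1 rose in WT cells by 0.72 ± 0.13 (SE, adjusted p = 0.000117) and differed in p53KO cells by 0.21 ± 0.13 (SE, adjusted p = 0.252).

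Among 7 large subunit genes and nucleolar regulators, 2 were called higher at 10 nM in p53KO and 4 in WT cells. NOP2, a ribosomal RNA methyltransferase, read 12.22, 12.23 and 12.09 in p53KO cells, against 12.04, 11.54 and 11.59 untreated (0.46 ± 0.16 (SE, adjusted p = 0.0433)), and 12.21, 12.12 and 12.08 in WT cells, against 11.57, 11.41 and 11.33 (0.70 ± 0.16 (SE, adjusted p = 0.00207)). Its second probe was not called in p53KO cells (0.58 ± 0.25 (SE, adjusted p = 0.0992)) and rose in WT cells (0.95 ± 0.25 (SE, adjusted p = 0.00477)). NIP7 rose by 0.50 ± 0.16 (SE, adjusted p = 0.0289) in p53KO cells and by 0.46 ± 0.16 (SE, adjusted p = 0.0331) in WT cells. MYBBP1A, a nucleolar protein that binds transcription factors, and NOP16 were called in WT cells, at 0.68 ± 0.23 and 0.47 ± 0.16 (SE, adjusted p = 0.0274 and 0.0241). In p53KO cells they differed by 0.27 ± 0.23 and 0.21 ± 0.16 (SE, adjusted p = 0.446 and 0.386). The difference between the genotypes' responses was not called for either. NOP56, a core protein of box C/D particles, rose in p53KO cells by 0.45 ± 0.14 (SE, adjusted p = 0.0205), with 0.28 ± 0.14 (SE, adjusted p = 0.121) in WT cells. NCL read 10.29, 10.19 and 10.12 in p53KO cells, a rise of 0.42 ± 0.15 (SE, adjusted p = 0.0441), and 10.03, 9.85 and 10.05 in WT cells, a difference of 0.28 ± 0.15 (SE, adjusted p = 0.157).

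BOP1, the scaffold of the PeBoW complex that matures large subunit RNA, went the other way. It read 10.35, 10.51 and 10.66 in p53KO cells at 10 nM, against 11.96, 12.33 and 12.22 untreated, a difference of -1.67 ± 0.28 (SE, adjusted p = 0.000138). In WT cells it read 11.09, 11.29 and 11.03, against 11.77, 12.16 and 12.15 untreated, a difference of -0.89 ± 0.28 (SE, adjusted p = 0.0175). The groups did not overlap in either genotype, and the test of the difference between the genotypes' responses did not pass (-0.78 ± 0.40 (SE, adjusted p = 0.596)). At 1 nM the second array of each genotype was the low one, with 12.21, 10.38 and 11.71 in p53KO and 12.04, 11.05 and 11.86 in WT cells. At 100 nM BOP1 read 12.18, 12.00 and 12.04 in p53KO and 12.19, 12.09 and 11.89 in WT cells, overlapping the untreated arrays. Under 75th percentile scaling BOP1 was called higher than untreated at 100 nM, at 1.10 in p53KO and 1.34 in WT cells, and its 10 nM difference in WT cells, -0.70, was not called (adjusted p = 0.0548).

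The other PeBoW members, PES1 and WDR12, were not called at 10 nM. PES1 differed by 0.13 ± 0.14 in p53KO and 0.24 ± 0.14 in WT cells, and WDR12 by 0.17 ± 0.19 and 0.40 ± 0.19 (SE), none of them called. FBL, the methyltransferase of box C/D particles, was the other gene called lower, in WT cells. It read 11.55, 11.37 and 11.55 there, against 11.92, 11.90 and 11.77 untreated (-0.38 ± 0.13 (SE, adjusted p = 0.0304)), and 11.78, 11.60 and 11.70 in p53KO cells, against 12.09, 11.91 and 11.64 untreated (-0.19 ± 0.13 (SE, adjusted p = 0.331)). Under 75th percentile scaling the WT difference of FBL was not called (-0.23, adjusted p = 0.298).

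With the slide as a random block, 3 of the 36 genes were called at 10 nM in p53KO and 6 in WT cells, beside 8.23% and 17% of all features. Without the 4 arrays, 13 and 16 were called, beside 28.5% and 39.8%. Leaving out the first or the second 10 nM array of p53KO cells left 4 calls, and leaving out the first 10 nM array of WT cells left 9. The shares of all features called in these fits are not given here. BOP1, BYSL, TAF1C and TSR1 in p53KO cells were called whichever 1 array was left out, as were BYSL, NOP2, PNO1, POLR1E, RCL1, TAF1C and TSR1 in WT cells.

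At 100 nM most of the list was lower than in untreated cells. In p53KO cells 22 genes were called lower and 4 higher, against 32.3% of all features lower and 33.8% higher. In WT cells 19 were called lower and 4 higher, against 32.5% lower and 33.2% higher. The median change of the list was -0.79 in p53KO and -0.57 in WT cells, beside 0.03 and 0.04 over all features. The 19 genes called lower in WT cells were also called lower in p53KO cells, and GAR1, PNO1 and TAF1C were called lower in p53KO cells in addition. NCL, NHP2, PES1 and TSR1 were called higher in both. Without the 4 arrays, 22 were called lower and 5 higher in p53KO cells, against 34.2% and 35% of all features, and 20 lower and 3 higher in WT cells, against 34.1% and 34.6%. Whichever 1 array was left out, 24 of the calls in p53KO and 20 in WT cells held. The calls of NOP14 and TAF1C in p53KO cells, and of NCL, TAF1A and TSR1 in WT cells, were lost in some of these fits. HBA1 read 9.59 to 9.62 in p53KO cells at 100 nM, against 6.64 to 7.43 untreated, and 9.01 to 9.23 in WT cells, against 6.01 to 6.97 untreated. COL1A1 read 6.06 to 6.64 in p53KO cells at 100 nM, against 5.28 to 5.36 untreated, and 5.19 to 5.80 in WT cells, against 4.95 to 5.38 untreated. Both were called higher in both genotypes, and their part in the result was not tested.

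These directions are relative to the scaling. When arrays were scaled by their 75th percentile, the median over all features moved to 0.56 in p53KO and 0.54 in WT cells, and that of the list to -0.17 and -0.19. Then 53.3% of all features were called higher and 21.4% lower in p53KO cells, and 52.6% higher and 20.8% lower in WT cells. Of the 36 genes, 15 were then called lower and 9 higher in p53KO cells, and 12 lower and 11 higher in WT cells. DKC1, NOP14, NOP2, POLR1A and WDR12 then lost their call in both genotypes, TAF1C and WDR3 in p53KO cells, and DDX21 and NIP7 in WT cells. BOP1, FBL, NOP16, NOP56 and POLR1C were then called higher in both genotypes, and RRP9 and TAF1C in WT cells. Relative to the median of all features, 27 of the 36 in p53KO and 28 in WT cells lay below it, beside 28 and 29 under the scaling used here.

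**Figure D3:**
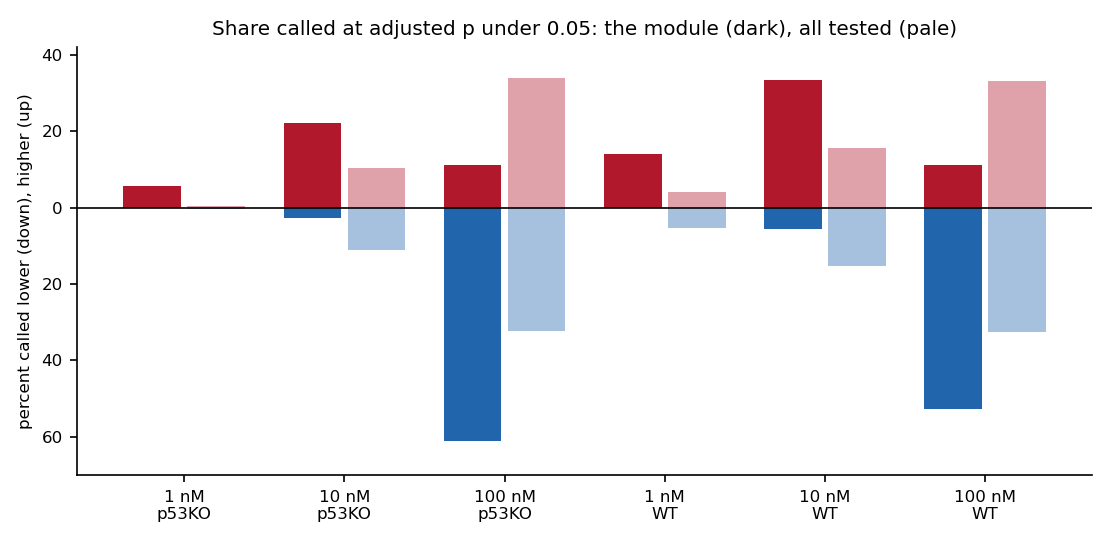
Percent of the 36 genes (dark) and of all 11526 tested features (pale) called higher (red, upward) or lower (blue, downward) than in untreated cells at adjusted p under 0.05, at 1, 10 and 100 nM actinomycin D in p53KO and WT cells. The dark bars point mostly up at 1 and 10 nM and mostly down at 100 nM, where 22 and 19 of 36 genes are called lower, while the pale bars are near-symmetric.

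RCL1 had the largest difference at 100 nM. It read 4.61, 4.98 and 4.98 in p53KO cells, against 8.28, 8.55 and 8.30 untreated, and 4.51, 4.29 and 4.71 in WT cells, against 8.26, 8.09 and 8.10. RCL1 was not detected on any of the 6 arrays of 100 nM, so the size is a bound, taken against the higher of each array's lowest detected signal and the probe's own. It was at least 8.2-fold lower in p53KO cells (adjusted p = 9.66e-17) and at least 7.58-fold lower in WT cells (adjusted p = 2.11e-17). RIOK1, a kinase of late small subunit maturation, read 6.30, 6.62 and 6.34 in p53KO cells, against 8.76, 8.56 and 8.54 untreated (-2.20 ± 0.17 (SE, adjusted p = 6.2e-11)). In WT cells it read 5.82, 5.79 and 5.91, against 8.55, 8.05 and 8.16 untreated (-2.42 ± 0.17 (SE, adjusted p = 1.07e-11)). Its second probe differed by -1.57 ± 0.25 (SE, adjusted p = 6.23e-06) in p53KO cells and by -1.60 ± 0.25 (SE, adjusted p = 4.87e-06) in WT cells.

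Of the Pol I subunits, POLR1E, POLR1A and POLR1D were called lower in both genotypes. POLR1E read 7.75, 7.39 and 7.21 in p53KO cells at 100 nM, a difference from untreated of -1.99 ± 0.18 (SE, adjusted p = 7.27e-10). In WT cells it read 7.87, 7.35 and 7.54, a difference of -1.56 ± 0.18 (SE, adjusted p = 5e-08). POLR1A read 5.28, 5.21 and 4.38 in p53KO and 4.92, 4.46 and 4.57 in WT cells and was not detected on any of these arrays. It was at least 1.34-fold lower in p53KO cells (adjusted p = 0.0032) and at least 1.36-fold lower in WT cells (adjusted p = 0.000394). Under 75th percentile scaling POLR1A was not called, at 0.03 in p53KO and -0.07 in WT cells (adjusted p = 0.897 and 0.752). POLR1B read 6.87, 6.38 and 6.95 in p53KO and 6.36, 6.34 and 7.22 in WT cells, overlapping the untreated arrays. POLR1C was not called in p53KO cells (-0.14 ± 0.17 (SE, adjusted p = 0.471)), where its second probe rose by 0.38 ± 0.17 (SE, adjusted p = 0.0494). In WT cells neither probe was called, at -0.30 and 0.20.

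POLR1D, a small subunit shared with RNA polymerase III, gave opposite answers with its 2 probes. The brighter probe read 10.55, 10.11 and 10.51 in p53KO cells at 100 nM, against 12.77, 12.36 and 12.35 untreated (-2.10 ± 0.15 (SE, adjusted p = 1.58e-11)), and 10.13, 10.05 and 10.35 in WT cells, against 12.75, 12.05 and 12.34 (-2.20 ± 0.15 (SE, adjusted p = 6.69e-12)). The dimmer probe read 8.51, 8.77 and 8.80 in p53KO cells, against 7.70, 7.76 and 7.85 untreated (0.92 ± 0.15 (SE, adjusted p = 1.14e-05)), and 8.35, 8.74 and 8.99 in WT cells, against 7.62, 7.97 and 7.78 (0.91 ± 0.15 (SE, adjusted p = 1.48e-05)). Neither probe's treated arrays overlapped its untreated ones. Which transcripts each probe reads was not analysed here, so POLR1D is counted as lower by the rule of the brightest probe only.

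The probes of GAR1, a box H/ACA core protein, differed in size. The brighter one was called in p53KO cells, at -0.54 ± 0.16 (SE, adjusted p = 0.00496), and not in WT cells, with -0.23 ± 0.16 (SE, adjusted p = 0.209). The dimmer one read 6.17, 5.71 and 5.91 in p53KO cells, against 8.08, 7.57 and 7.66 untreated (-1.84 ± 0.29 (SE, adjusted p = 5.35e-06)), and 5.66, 5.45 and 6.22 in WT cells, against 7.58, 7.39 and 7.42 (-1.69 ± 0.29 (SE, adjusted p = 1.75e-05)).

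**Figure D4:**
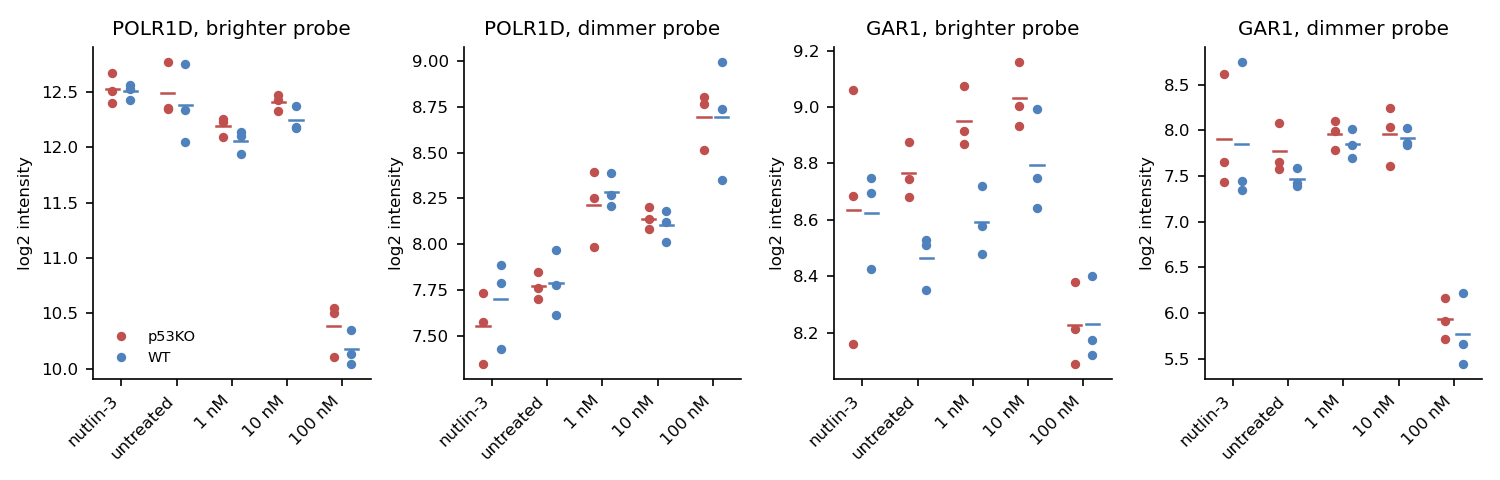
Log2 intensity on each array (points) and group means (bars) of the brighter and dimmer probes of POLR1D and GAR1 under nutlin-3, without drug and at 1, 10 and 100 nM actinomycin D, with p53KO (red) left of WT (blue). At 100 nM the brighter POLR1D probe lies below every other group and the dimmer one above the untreated arrays, while both GAR1 probes are lowest at 100 nM, the dimmer by more.

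Of the initiation factors, RRN3, TAF1A and TAF1B were called lower at 100 nM in both genotypes, TAF1C in p53KO cells, and UBTF in neither. RRN3 read 8.87, 8.79 and 8.89 in p53KO cells, against 9.87, 9.82 and 9.65 untreated (-0.93 ± 0.15 (SE, adjusted p = 8.36e-06)), and 8.83, 8.59 and 8.74 in WT cells, against 9.49, 9.67 and 9.48 (-0.83 ± 0.15 (SE, adjusted p = 3.84e-05)). TAF1B, an SL1 subunit, read 5.96, 5.69 and 5.33 in p53KO cells, against 7.50, 7.46 and 7.36 untreated (-1.78 ± 0.18 (SE, adjusted p = 6.85e-09)), and 6.28, 5.52 and 5.64 in WT cells, against 7.88, 7.62 and 7.79 (-1.95 ± 0.18 (SE, adjusted p = 1.35e-09)). TAF1A, another SL1 subunit, differed by -1.35 ± 0.30 (SE, adjusted p = 0.000402) in p53KO cells and by -0.90 ± 0.30 (SE, adjusted p = 0.0119) in WT cells, where 1 treated array overlapped the untreated ones. TAF1C differed by -0.36 ± 0.12 (SE, adjusted p = 0.0118) in p53KO cells and by -0.26 ± 0.12 (SE, adjusted p = 0.0701) in WT cells. Its second probe was called in neither, at 0.07 and -0.02, and with the mean of the probes the p53KO call was lost. UBTF read 6.79, 6.84 and 6.11 in p53KO and 6.99, 6.78 and 6.38 in WT cells, above the first untreated array of each genotype and below the other 2. Without the 4 arrays UBTF was called lower in p53KO cells (-0.53, adjusted p = 0.016) and not in WT cells (-0.41, adjusted p = 0.0568).

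Most assembly factors of both subunits were lower. Of the 7 large subunit genes 5 were called lower in each genotype, and of the 9 small subunit genes 7 in p53KO and 6 in WT cells. RRP1B, a nucleolar protein related to a yeast processing factor, read 6.85, 6.74 and 6.65 in p53KO cells, against 8.30, 8.53 and 8.58 untreated (-1.72 ± 0.16 (SE, adjusted p = 1.06e-09)), and 6.93, 6.36 and 6.69 in WT cells, against 8.23, 8.64 and 8.48 (-1.79 ± 0.16 (SE, adjusted p = 5.25e-10)). DDX21, an RNA helicase, differed by -1.33 ± 0.15 (SE, adjusted p = 2.24e-08) in p53KO cells and by -1.10 ± 0.15 (SE, adjusted p = 4.42e-07) in WT cells. BYSL read 8.67, 8.59 and 8.73 in p53KO and 8.18, 8.14 and 8.71 in WT cells, differences of -1.20 ± 0.14 (SE, adjusted p = 3.55e-08) and -1.33 ± 0.14 (SE, adjusted p = 6.43e-09). WDR3, a small subunit processome protein, was not detected on any 100 nM array and was at least 1.27-fold lower in p53KO cells and at least 1.44-fold lower in WT cells (adjusted p = 9.76e-08 and 5.21e-09). DKC1, the pseudouridine synthase of box H/ACA particles, differed by -0.94 ± 0.16 (SE, adjusted p = 1.22e-05) in p53KO cells and by -1.05 ± 0.16 (SE, adjusted p = 2.71e-06) in WT cells. NOP2 differed by -0.90 ± 0.16 (SE, adjusted p = 3.08e-05) in p53KO cells and by -0.61 ± 0.16 (SE, adjusted p = 0.00192) in WT cells, while its second probe was called in neither, at -0.02 and -0.46. WDR12 of PeBoW differed by -0.77 ± 0.19 (SE, adjusted p = 0.00101) in p53KO cells and by -0.75 ± 0.19 (SE, adjusted p = 0.00132) in WT cells.

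PES1, NHP2, NCL and TSR1 were higher at 100 nM. PES1, the PeBoW partner of BOP1 and WDR12, read 9.90, 9.78 and 9.82 in p53KO cells, against 9.04, 9.35 and 9.11 untreated (0.67 ± 0.14 (SE, adjusted p = 0.000157)), and 9.83, 9.58 and 9.64 in WT cells, against 8.98, 9.26 and 9.15 (0.55 ± 0.14 (SE, adjusted p = 0.00109)). NHP2, a box H/ACA core protein, read 11.90, 11.92 and 11.93 in p53KO cells, against 11.51, 11.26 and 11.30 untreated (0.56 ± 0.13 (SE, adjusted p = 0.000762)), and 11.93, 11.96 and 11.89 in WT cells, against 11.51, 11.45 and 11.45 (0.46 ± 0.13 (SE, adjusted p = 0.00442)). NCL read 10.48, 10.35 and 10.14 in p53KO cells (0.55 ± 0.15 (SE, adjusted p = 0.00236)) and 10.26, 10.13 and 9.82 in WT cells (0.37 ± 0.15 (SE, adjusted p = 0.0296)). The WT arrays of NCL overlapped the untreated ones, and without the 4 arrays that call was lost (adjusted p = 0.0663). TSR1 read 9.04, 9.10 and 8.98 in p53KO cells (0.58 ± 0.13 (SE, adjusted p = 0.000331)) and 8.76, 8.76 and 9.01 in WT cells (0.36 ± 0.13 (SE, adjusted p = 0.0161)). FBL read 11.91, 11.62 and 11.80 in p53KO and 11.99, 11.71 and 11.61 in WT cells, differing by -0.11 and -0.10, but by 1.01 and 1.13, both called, under 75th percentile scaling.

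The doses were also compared directly, since some WT arrays of 10 and 100 nM shared slides. No slide held p53KO arrays of both doses, so from the p53KO arrays alone dose and slide cannot be told apart. Taking 100 nM minus 10 nM, 22 genes were called lower and 3 higher in p53KO cells, against 32.5% of all features lower and 32.3% higher. In WT cells 26 were called lower and 2 higher, against 32.6% lower and 32% higher. The median difference of the list was -0.95 in p53KO and -1.0 in WT cells, beside 0.01 and 0.00 over all features. Within the 2 slides that held both doses of WT cells it was -1.0 and -1.02, with 5 of 36 genes above 0 in each. Under 75th percentile scaling 19 genes were called lower and 7 higher in p53KO cells, against 20.8% and 53.2% of all features, and 21 lower and 6 higher in WT cells, against 21.2% and 50.9%. The median of the list was then -0.61 in p53KO and -0.53 in WT cells, beside 0.56 and 0.49 over all features. The second probe of POLR1D was higher at 100 than at 10 nM in both genotypes, by 0.55 and 0.59, where the probe used was lower (-2.02 and -2.07). POLR1C was called lower in WT cells (-0.84), and its second probe was not (-0.31).

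RCL1 was at least 9.49-fold lower at 100 than at 10 nM in p53KO cells and at least 12.5-fold lower in WT cells (adjusted p = 4.68e-17 and 4.97e-19). POLR1E differed by -2.58 ± 0.18 (SE, adjusted p = 9.37e-12) in p53KO cells and by -2.18 ± 0.18 (SE, adjusted p = 1.7e-10) in WT cells. RIOK1 differed by -2.32 ± 0.17 (SE, adjusted p = 3.31e-11) in p53KO cells and by -2.61 ± 0.17 (SE, adjusted p = 3.37e-12) in WT cells. BYSL differed by -1.73 ± 0.14 (SE, adjusted p = 7.68e-11) in p53KO cells and by -2.14 ± 0.14 (SE, adjusted p = 1.57e-12) in WT cells. BOP1 was higher at 100 than at 10 nM, by 1.57 ± 0.28 (SE, adjusted p = 2.97e-05) in p53KO cells and by 0.92 ± 0.28 (SE, adjusted p = 0.00604) in WT cells. NHP2 was higher too, by 0.61 ± 0.13 (SE, adjusted p = 0.000323) in p53KO cells and by 0.37 ± 0.13 (SE, adjusted p = 0.019) in WT cells, as was PES1 in p53KO cells, by 0.53 ± 0.14 (SE, adjusted p = 0.0015).

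Under nutlin-3, limma called 0 of the 36 genes in either genotype, beside 0.0521% of all features in p53KO and 0.234% in WT cells. An unadjusted p under 0.05 was reached by 3 genes in p53KO and 5 in WT cells, beside 9.25% and 12.4% of all features. The median change was 0.07 in p53KO and 0.15 in WT cells, beside -0.01 over all features in both. Without the 4 arrays 0 were called, beside 0.0347% of all features in p53KO and 2.72% in WT cells. PES1 came closest in WT cells, at 9.72, 9.71 and 9.75 under nutlin-3 against 8.98, 9.26 and 9.15 untreated (0.60 ± 0.14 (SE, adjusted p = 0.0615)), without overlap. It was called there under 10 of 21 other settings, with adjusted p between 0.00244 and 0.204. In p53KO cells PES1 read 9.69, 9.18 and 9.87, against 9.04, 9.35 and 9.11 untreated (0.41 ± 0.14 (SE, adjusted p = 0.464)). POLR1A read 6.09, 6.03 and 5.88 in p53KO and 6.02, 5.70 and 6.18 in WT cells. UBTF read 7.03, 6.58 and 6.67 in p53KO and 6.77, 6.91 and 6.75 in WT cells, and RRN3 read 9.62, 10.03 and 9.49 in p53KO and 9.52, 9.19 and 9.96 in WT cells. All 3 genes overlapped the untreated arrays in both genotypes. Blocking on slide as a fixed term sets the first and second nutlin-3 arrays against the first untreated array on their slide, and 7 genes were then called in p53KO and 4 in WT cells, all higher, beside 19.2% and 19.7% of all features in either direction.

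NOLC1 was the one gene called between the genotypes. It encodes Nopp140, a chaperone of box C/D and box H/ACA particles. Without drug it read 8.96, 8.33 and 8.30 in p53KO cells, against 9.43, 9.73 and 9.54 in WT cells (-1.04 ± 0.24 (SE, adjusted p = 0.0287)). At 1 nM it read 8.94, 9.07 and 9.08 in p53KO cells, against 10.20, 10.01 and 9.97 in WT cells (-1.03 ± 0.24 (SE, adjusted p = 0.0081)). At 10 nM it read 9.25, 9.10 and 9.02 in p53KO cells, against 10.20, 10.12 and 10.22 in WT cells (-1.06 ± 0.24 (SE, adjusted p = 0.00443)). At 100 nM it read 8.90, 8.93 and 8.70 in p53KO cells, against 9.77, 9.40 and 9.60 in WT cells (-0.75 ± 0.24 (SE, adjusted p = 0.092)). All p53KO arrays lay below all WT arrays in these 4 conditions. Under nutlin-3 it read 8.51, 8.38 and 9.54 in p53KO cells and 9.64, 9.41 and 8.55 in WT cells, the third array of each lying with the other genotype's, as for PROM1.

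For p53KO minus WT, 1 of 36 genes was called without drug, 1 at 1 nM, 1 at 10 nM and 0 at 100 nM, each time NOLC1, beside 1.28%, 11.4%, 14.2% and 3.68% of all features. At 100 nM 5 of the 36 had an unadjusted p under 0.05, beside 14.4% of all features. In another fit the genotypes were paired by replicate number. The labels do not give this pairing, which was taken from correlations in these same data. With the arrays paired, 0, 3, 5 and 0 genes were called, beside 0.295%, 16%, 21.9% and 6.98% of all features. NOLC1 kept its call at 1 and 10 nM in the paired fit (adjusted p = 0.0347 and 0.0242) but not without drug (adjusted p = 0.102). POLR1E and MYBBP1A joined it at 1 nM, at 0.50 and -0.42. BOP1, MYBBP1A, TAF1A and TAF1C joined it at 10 nM, at -0.63, -0.59, 0.68 and -0.32. The second probe of TAF1C was called the opposite way at 10 nM in the fit without pairing, at 0.39 ± 0.13 (SE, adjusted p = 0.0479).

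Without the 4 arrays, 2, 6, 6 and 3 genes were called, beside 3.48%, 22.7%, 25.6% and 9.33% of all features. NOLC1 was called in all 4 conditions then, at -1.33, -1.03, -1.06 and -0.75. RIOK1 was called in all 4 as well, higher in p53KO cells by 0.44, 0.45, 0.29 and 0.58. Within slides NOLC1 differed by -0.46 and -1.33 without drug, -1.03 at 1 nM, -1.09 at 10 nM and -0.84 at 100 nM. Without drug its call was lost on leaving out the second or the third WT array or any 1 of the 3 p53KO arrays. At 1 and 10 nM it held whichever 1 array was left out. At 100 nM, 2 genes were called without the third WT array and 1 without the first p53KO array. The shares of all features called in these 2 fits are not given here.

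The response to actinomycin D was compared between the genotypes, each against its own untreated arrays. The test of that difference called 0 of the 36 genes at 1, 10 and 100 nM, beside 0%, 0.425% and 0.234% of all features. An unadjusted p under 0.05 was reached by 1 gene at each dose, beside 6.15%, 9.04% and 5.48% of all features. For RCL1 the p53KO minus WT difference in response was -0.51 ± 0.18 (SE, adjusted p = 0.512) at 1 nM and -0.51 ± 0.18 (SE, adjusted p = 0.25) at 10 nM. For PNO1 it was -0.59 ± 0.27 (SE, adjusted p = 0.858) at 100 nM. Across the 36 genes, Pearson's r between p53KO and WT changes was 0.753 at 1 nM, 0.835 at 10 nM and 0.970 at 100 nM, with Spearman's rho 0.694, 0.810 and 0.961. The sign was the same for 34, 33 and 33 genes. These are descriptions across genes read on the same arrays, and genes are not independent replicates. Arrays of both genotypes also shared slides at each dose and without drug, and what this adds to r was not tested. The same values over all features are not given here. Under nutlin-3, with the arrays that go against their labels included, r was 0.270 and rho 0.316.

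**Figure D5:**
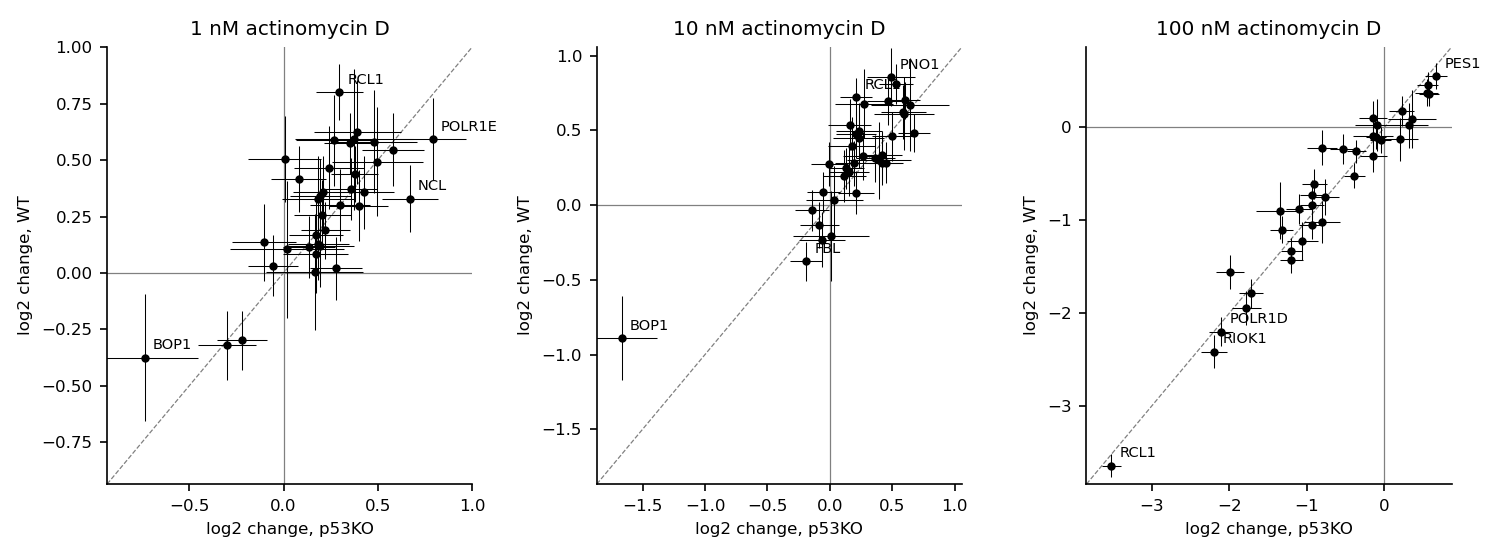
Log2 change against untreated arrays in p53KO cells (horizontal) and WT cells (vertical) of the 36 genes at 1, 10 and 100 nM actinomycin D; bars are standard errors, the dashed line marks equal change, axes differ between panels, and some genes are named. At 100 nM the genes lie along the line from PES1 to RCL1 (r = 0.970), and at 10 nM BOP1 lies apart from the rest.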

How the data were processed

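Total RNA of p53KO and WT HCT116 cells was amplified and hybridised to Illumina bead arrays, per the labels' protocols. The deposited table held bead intensities without normalization and, for each probe on each array, a detection p-value, exported with BeadStudio per the submitters' processing notes, which give no version. A table of processed intensities deposited by the authors served as an alternative. The 30 arrays were matched by column name, and 26 array columns of other samples were not used. Intensities were background-corrected with normexp, quantile normalised and log2 transformed (neqc, offset 16). Of 22177 probes, 21101 had 1 gene symbol in the platform annotation and 1076 none. The 12896 probes with detection p under 0.01 on all 3 arrays of a group were kept, and the brightest probe of each gene was used, leaving 11526 features.

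All 10 groups were fitted together with limma 3.58.1 in R 4.3.3 (20 residual degrees of freedom), and p-values were adjusted by the Benjamini-Hochberg method over all features. Values of second probes came from the same model fitted to all 12896 kept probes, with the adjustment made over those. Tables and plots were made with Python 3.11.15, pandas 2.3.3, numpy 2.4.6 and matplotlib 3.10.9. On simulated data for 10 nM minus untreated in WT cells (11526 features), 82% of 100 features changed by 1 log2 unit and 100% of 100 changed by 2 were recovered, and 13 unchanged features were called. The simulation changed only 200 features and drew arrays independently, without slide effects, so these rates may not hold for the real arrays. The number of arrays limits the precision. The pairing of p53KO and WT arrays by replicate number was taken from the data: deviations from group means correlated at 0.597 to 0.780 without drug, 0.408 to 0.518 at 1 nM, 0.353 to 0.423 at 10 nM and 0.233 to 0.471 at 100 nM, but at -0.438 to 0.012 under nutlin-3. Untreated arrays of the same number also shared a slide, and what this adds to the correlation was not tested. Treated and untreated arrays of the same number were not paired (-0.168 to 0.191). A genotype-by-treatment test under nutlin-3 was not made.

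The genes, their roles and the lists were chosen with earlier results of these data known. The plan was to give array values for POLR1A, POLR1B, UBTF, RRN3, FBL and NCL. In each contrast it added up to 4 called genes with the highest and up to 4 with the lowest change whose groups do not overlap. Not all of these values are printed. Those left out include RRN3 and FBL at 1 nM, RCL1 at 10 nM, and POLR1B, FBL and NCL under nutlin-3. Other genes given with array values were chosen after their values were seen. Alternatives were the authors' processed table, 75th percentile scaling, no background correction, other detection filters, the mean of a gene's probes, slide as a fixed or random block, a replicate block, and leaving out arrays. Fits that dropped the second WT array of the 10 and 100 nM groups, and fits with a slide or replicate block without the 4 arrays named in the results, were chosen after seeing the data.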

Additional observations from a re-analysis of the deposited data

How the results depend on the processing

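Counts are of the 36 genes called, and the cause of each change was not tested. The share of all features called moved with the setting too and is not given beside each count. At 1 nM it was 0.0434% in p53KO and 0.399% in WT cells with a random slide block, and 3.51% and 17.3% without the 4 named arrays. At 10 nM it was 8.23% in p53KO and 17% in WT cells with a random slide block. Without the 4 named arrays it was 28.5% and 39.8% at 10 nM. Under nutlin-3 it was 19.2% in p53KO and 19.7% in WT cells with a fixed slide block. These counts alone therefore do not set the 36 genes apart. In fits without the 4 arrays the random slide block took an estimated correlation of -0.09, against 0.50 with all arrays. At 1 nM, p53KO cells (2 calls) had 0 under 75th percentile scaling and with a random slide block, 1 without the first untreated arrays, 4 without the 4 named arrays, and 6 and 4 with a random slide block and a replicate block added to that; WT cells (5 calls) had 0 with a random slide block, 8 with a replicate block, 8 without the 4 arrays, 10 without the third nutlin-3 arrays, and 10 and 9 with those 2 blocks and without the 4 arrays. At 10 nM, p53KO cells (9 calls) had 3 with a random slide block and 15 with it and without the 4 arrays, and WT cells (14 calls) had 6 with a random slide block and 9 without the second WT arrays. Under nutlin-3 (0 calls), p53KO cells had 3 with a random and 7 with a fixed slide block. WT cells had 1 with the authors' table, 75th percentile scaling, no background correction, either other detection filter or without the third nutlin-3 arrays, 2 with a random slide block, 4 with a fixed one, and 2 with a random slide block or a replicate block without the 4 arrays.

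For p53KO minus WT without drug (1 call), 0 were called with the authors' table, no detection filter, the replicate block or no first untreated arrays, 3 with a fixed slide block, 2 without the 4 arrays, and then 2 with a random slide block and 3 with the paired block. At 1 nM (1 call) 2 were called with the authors' table or no background correction, 4 with a random slide block or without the third nutlin-3 arrays, 6 with a fixed slide block, 3 paired, 6 without the 4 arrays, and then 6 with a random slide block and 11 paired. At 10 nM (1 call) 2 were called with the authors' table or 75th percentile scaling, 3 with a fixed slide block or without the third nutlin-3 arrays, 5 paired, 6 without the 4 arrays, and then 6 with a random slide block and 11 paired. At 100 nM (0 calls) 1 was called with 75th percentile scaling or no first untreated arrays, 3 with a random or a fixed slide block, 2 without the third nutlin-3 arrays, 3 without the 4 arrays, and then 3 with a random slide block and 6 paired. The difference in response at 10 nM had 1 call, RCL1, with the authors' table, beside 0.39% of all features called higher and 0.555% lower. For p53KO minus WT at 10 nM, the share of all features called was 14.2% in the fit used here, 21.9% paired and 25.6% without the 4 arrays.

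Leaving out 1 array gave, for p53KO and then WT cells, 0 to 2 and 2 to 4 calls at 1 nM, 4 to 8 and 9 to 11 at 10 nM, 25 to 26 and 21 to 23 at 100 nM, 0 under nutlin-3, and 25 to 27 and 25 to 29 for 100 nM minus 10 nM. It gave 0 to 1 for p53KO minus WT without drug, 1 at 1 and at 10 nM and 0 to 2 at 100 nM. The arrays that moved these counts by over 1.5 times are named beside the results. Under 75th percentile scaling, FBL at 100 nM turned to 1.01 in p53KO and 1.13 in WT cells, and POLR1A in p53KO cells to 0.032 at 100 nM and 0.075 for 100 nM minus 10 nM. UBTF under nutlin-3 in WT cells turned to 0.73 with a fixed slide block (adjusted p = 0.024). Under the other settings run, the total called in either direction at 100 nM against untreated stayed within 1.5 times of that given, but the split by direction moved under 75th percentile scaling, to 15 lower and 9 higher in p53KO and 12 lower and 11 higher in WT cells. The fixed slide block could not be fitted for actinomycin D against untreated, which share no slide. Signal over background limits RCL1, POLR1A and WDR3 at 100 nM to bounds.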

Other observations

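Another 107 tested genes of ribosome production were counted beside the 36. They came from 116 listed by function, with earlier results of these data known. At 10 nM 24 of them were called higher and 4 lower in p53KO cells, and 31 higher and 5 lower in WT cells, with medians of 0.23 and 0.22. Of all features 10.4% were called higher and 11.2% lower in p53KO cells, and 15.6% higher and 15.4% lower in WT cells. Genes of large subunit assembly accounted for 13 higher and 3 lower of 38 in p53KO cells, and for 12 higher and 2 lower in WT cells. The small subunit processome had 5 higher and 0 lower of 30 in p53KO cells, and 10 higher and 0 lower in WT cells. Of 13 genes of the exosome, which trims ribosomal RNA, 2 were called higher and 0 lower in p53KO cells, and 2 higher and 2 lower in WT cells.

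At 100 nM 57 of the 107 were called lower and 22 higher in p53KO cells, and 55 lower and 22 higher in WT cells, with a median of -0.43 in both. Of all features 32.3% were called lower and 33.8% higher in p53KO cells, and 32.5% lower and 33.2% higher in WT cells. Large subunit assembly had 24 lower and 3 higher of 38 in p53KO cells (median -0.82), and 22 lower and 5 higher in WT cells (median -0.77). The small subunit processome had 14 lower and 8 higher of 30 in p53KO cells (median -0.30), and 15 lower and 8 higher in WT cells (median -0.26). The exosome had 8 lower and 4 higher of 13 in p53KO cells, and 7 lower and 3 higher in WT cells. RNA polymerase III genes had 9 lower and 2 higher of 17 in each genotype, with medians of -0.66 and -0.67. The 4 other Pol I genes ran the other way, with 3 higher and 1 lower in p53KO cells (median 0.52), and 2 higher and 1 lower in WT cells (median 0.58). The 5 subunits shared between polymerases had 2 higher and 1 lower in each genotype.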
